A study of Homo sapiens with 16 samples.

Results

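CCL4, CCL5, CCL17 and CCL22 are CC chemokine genes that activated B cells can express. The members were taken by symbol, as the probe sets that the platform annotation gives to exactly 1 of these 4 names. That gave 6 probe sets out of 41091 with 1 gene, 3 of them for CCL5 and 1 for each of the others, and 4 genes out of 19775. The probe set of highest mean signal stood for CCL5. All 4 genes entered the fits, which took genes above the 60th percentile of their array on at least 2 of the 16 arrays. CCL4 exceeded that level on 14 arrays, CCL22 on 10, CCL5 on 8 and CCL17 on 4.

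The arrays came from 8 established human B-cell lines that the series groups as mantle cell lymphoma lines. REC-1 and SP49 are labelled sensitive to "stn" and ibrutinib, a BTK inhibitor. The insensitive label is on JVM-2, JVM-13, HBL-2, Z-138, GRANTA-519 and Maver-1. Each line gave 1 array after 20 hours in 0.025% DMSO, the solvent, and 1 after 20 hours in 5 uM AFN700, an inhibitor of IKKbeta. The labels give no genetic change in any group, and whether the AFN700 wells held the same share of DMSO is not given in the sources used here. The AFN700 array of JVM-13 carries AFN701 in its treatment and description labels and AFN700 in its title, and it was used as that line's treated array. The line is the replicate, so a value in 1 line has no error of its own, and 16 arrays limit the precision. Each line is a single cultured tumour or B-cell line, which limits what it says of lymphoma in patients.

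The B-cell markers MS4A1, CD79A, CD79B, PAX5 and CD22 were above the 60th percentile on all 16 arrays. The mantle cell lymphoma markers were not present in every line. SOX11 had intensities of 0.1 and 0.6 in JVM-2 and 1.4 and 0.3 in JVM-13, DMSO first, against at least 453.1 on the 12 arrays of the other lines. CCND1, cyclin D1, was at 4.8 and 2.3 in JVM-13 and at 78.7 and 79.1 in JVM-2. The JVM-13 array with DMSO had a low median log2 level over the genes tested, 7.25, while the other 15 arrays had 7.82 to 8.02. RNA integrity, read from the 3' over 5' ratio of actin, differed within some pairs of arrays. The ratio was 1.9 with DMSO and 16.7 with AFN700 in HBL-2, 2.73 and 6.39 in SP49, and 10.3 and 18.8 in Maver-1, the highest of all lines. The other 5 lines had ratios of 2.01 to 5.43. The part of array quality in the results from JVM-13, HBL-2, SP49 and Maver-1 was not tested.

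Chemokines are small secreted proteins that guide the movement of leukocytes through G protein-coupled receptors, and the CC class has its first cysteines next to each other. CCL4, also called MIP-1beta, is secreted by B cells after stimulation of the B-cell receptor. CCL5, or RANTES, attracts T cells and monocytes, and CCR1 is among its receptors. CCL17 (TARC) and CCL22 (MDC) share the receptor CCR4 and attract regulatory and helper T cells. NF-kB is a known regulator of chemokine genes, and IKKbeta, the target of AFN700, releases classical NF-kB from its inhibitor. CCL17 and CCL22 are neighbours on chromosome 16, with only CX3CL1 between them in the RefSeq gene table used, and CCL4 and CCL5 lie on chromosome 17. Each intensity below is the authors' linear MAS5 value, and each log2 difference is AFN700 minus DMSO on the scale log2(intensity + 3.3), which understates the change of low signals.

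The promoter of CCL22 is shown for its NF-kB motif, since AFN700 inhibits IKKbeta. Of the 4 genes, only CCL22 had a window among the promoter sequences used. The 250 bases before the gene's start lie at chr16:57358533-57358782 on the plus strand of GRCh38.p14. Capitals mark matches to the NF-kB consensus, searched on both strands.

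CCL22: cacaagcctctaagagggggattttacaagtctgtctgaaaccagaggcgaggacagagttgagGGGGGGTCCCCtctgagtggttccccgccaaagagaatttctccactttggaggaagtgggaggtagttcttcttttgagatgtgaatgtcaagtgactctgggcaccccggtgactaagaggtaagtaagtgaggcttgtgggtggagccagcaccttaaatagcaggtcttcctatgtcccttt

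The match is a pair of overlapping windows, at positions -186 to -177 and -185 to -176 from the start, and each reads on both strands. Of 34943 windows of the same length, 9.9% held at least 1 match to this consensus. The AP-1 motif TGANTCA (6.6% of windows) and the STAT6 spacing of TTC and GAA with any 4 bases between them (5.4%) had no match in the CCL22 window. A match is a description of the letters and not a measured binding site.

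The DMSO level of the 4 genes differed widely between lines. In a bulk culture, fewer expressing cells and less RNA per cell cannot be told apart. CCL22 intensities under DMSO ran from 2.6 to 3263.6, with a median of 767.6. JVM-13 (3263.6) and JVM-2 (3136) were highest, followed by SP49 (1489.1), GRANTA-519 (1371.6) and HBL-2 (163.6). REC-1 (25.9), Maver-1 (9.4) and Z-138 (2.6) were below the 60th percentile of their arrays. CCL22 thus had a clear signal in 5 lines, and in the other 3 its level could not be told from background.

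CCL4 intensities under DMSO ran from 13.4 to 1724.2, with a median of 346.55. GRANTA-519 (1724.2), SP49 (1656.5) and JVM-2 (1566) formed the upper end, and JVM-13 (375.3), REC-1 (317.8), Z-138 (279.1) and HBL-2 (176.6) lay below them. Maver-1, at 13.4, was the only line below the 60th percentile. The CCL4 probe set may also detect the near-identical CCL4L genes, so its signal may include theirs.

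CCL5 under DMSO separated JVM-2 (509.5), GRANTA-519 (327.2) and JVM-13 (155.2) from the other 5 lines. Those 5 ran from 19.4 in Maver-1 to 37.4 in SP49, and of them only SP49 and Z-138 (26.6) exceeded the 60th percentile of their array, 29.2 and 25.4. The other probe sets of CCL5 showed the same 3 lines on top. Probe set 1405_i_at read 327.1, 239.2 and 112.5 in JVM-2, GRANTA-519 and JVM-13 and at most 15.7 elsewhere. Probe set 1555759_a_at read 147.6, 149.5 and 89.9 in the same order and at most 14.5 elsewhere. As background, these 3 lines are known to carry Epstein-Barr virus, which the labels do not give, and no test was made on that grouping.

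**Figure D1:**
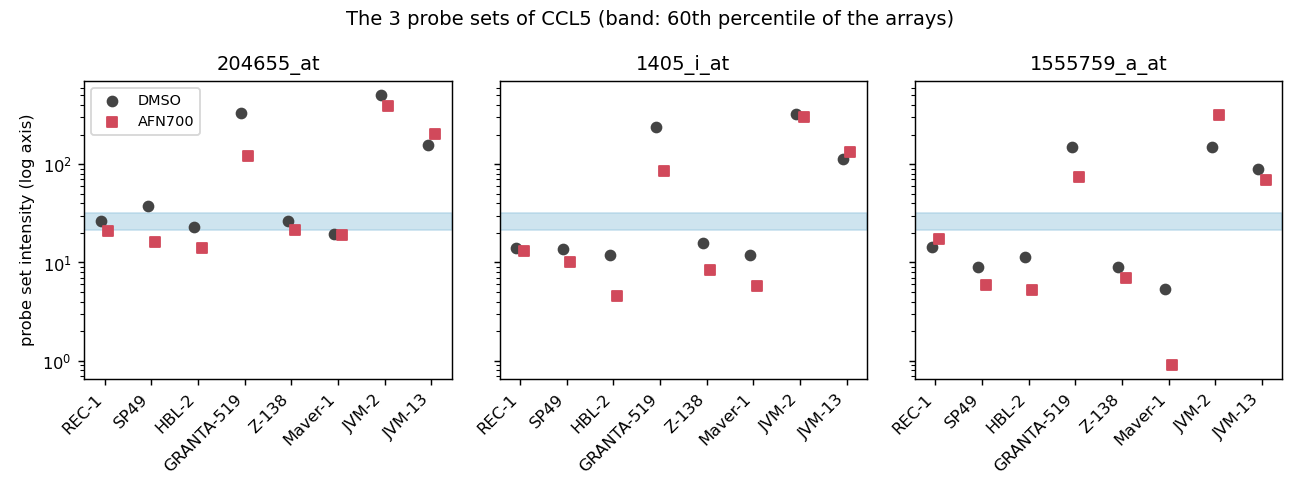
Intensity (log axis) of the 3 CCL5 probe sets in the 8 lines with DMSO (circles) and AFN700 (squares), with a band for the 60th percentiles of the arrays. In each panel GRANTA-519, JVM-2 and JVM-13 lie above the band in both treatments, and 204655_at stood for the gene.

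CCL17 was the weakest signal among the members relative to its array's 60th percentile, with DMSO intensities from 5.5 to 48.2 and a median of 12.35. Only JVM-13 (48.2), SP49 (40.9) and GRANTA-519 (35.8) exceeded that level. JVM-2 (14.3), HBL-2 (10.4), Z-138 (8.7), REC-1 (6.7) and Maver-1 (5.5) were below it. JVM-2, with one of the highest CCL22 signals, was therefore among the lines with a low CCL17 signal.

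Neighbours in these orders cannot be told apart by a replicate spread, since each line had 1 array per treatment. Maver-1 was lowest or next to lowest for all 4 genes under DMSO. Across the 8 lines, the DMSO levels of CCL17 and CCL22 had a Pearson r of 0.83 (Spearman 0.86, n = 8 lines), and 0.76 without JVM-13 and SP49. This is a description, and all points share single arrays and 1 scaling.

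The sensitive lines did not differ from the insensitive ones in the DMSO level of any member beyond the spread between lines. In limma's test of 2 against 6 DMSO arrays, CCL4 had a log2 difference, sensitive minus insensitive, of 1.24 ± 1.55 (SE, 95% interval -2.23 to 4.71, adjusted p = 0.915). CCL5 was at -1.34 ± 1.27 (-4.18 to 1.5, adjusted p = 0.913). CCL17 was at 0.13 ± 0.89 and CCL22 at -0.18 ± 2.63, with adjusted p-values of 0.988 and 0.995. The intervals are wide, so they do not show equal levels. Of 12305 genes tested, limma called 1 (0.00813%), KCNJ16, and 702 had an unadjusted p under 0.05. The number of genes called was 3 without GRANTA-519 or without JVM-2, and 0 without HBL-2, Z-138 or JVM-13. Without SP49 or REC-1 the sensitive group is a single array with no spread of its own, so no count is given.

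**Figure D2:**
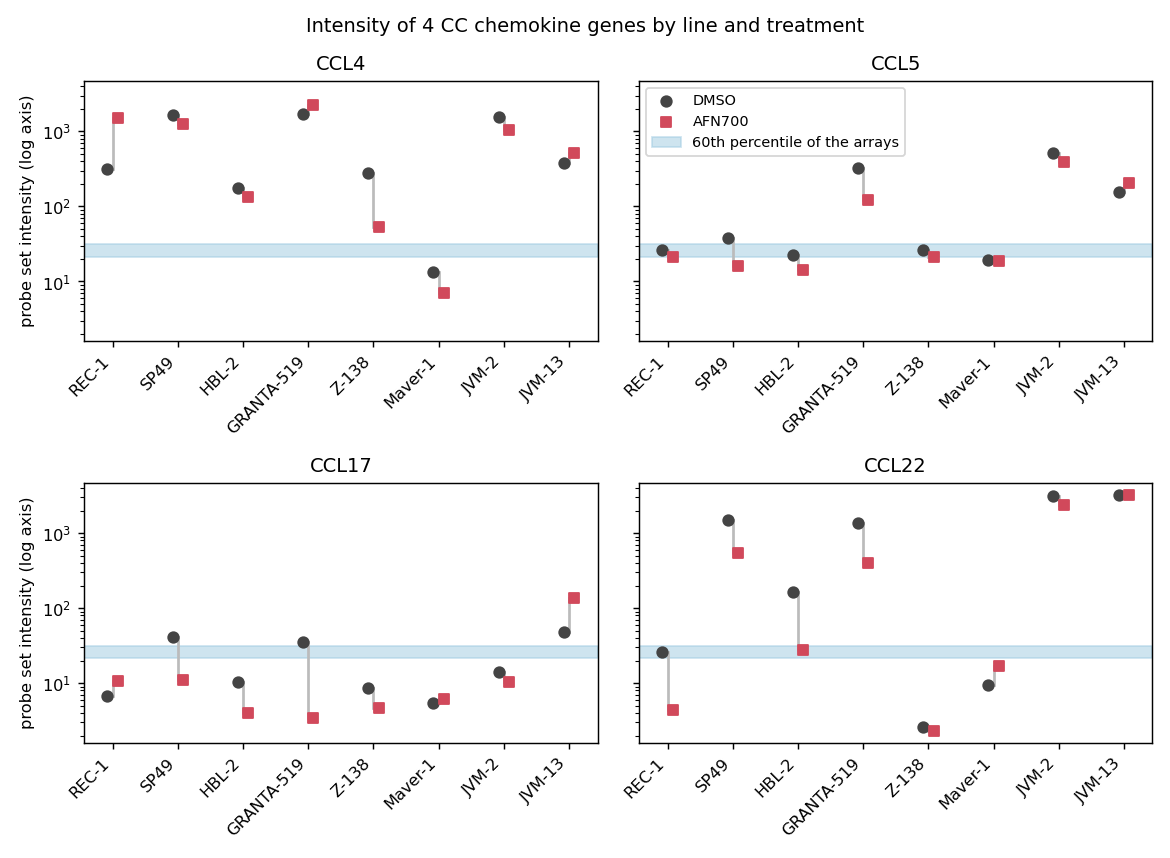
Intensity (log axis) of the 4 genes in each line with DMSO (circles) and AFN700 (squares), joined by a line, with a band for the 60th percentiles of the arrays (21.5 to 31.7). CCL22 squares lie below the circles in REC-1, SP49, HBL-2 and GRANTA-519, while CCL4 moves up in REC-1 and down in Z-138.

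The next question was how the 4 genes responded to AFN700 in each line. CCL22 had a lower value with AFN700 in 7 of 8 lines, and by at least 2-fold in REC-1, SP49, HBL-2 and GRANTA-519. In SP49 it went from 1489.1 to 548.3, a log2 difference of -1.44. In GRANTA-519 it went from 1371.6 to 401.9 (-1.76), and in HBL-2 from 163.6 to 27.4 (-2.44). These 3 lines began with a clear signal. In REC-1 the values were 25.9 and 4.4 (-1.92), which began below the 60th percentile, so the size depends on the pseudocount and was -1.04 with a pseudocount of 16.

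In the lines with the highest CCL22 signals the differences were smaller than 2-fold. JVM-2 went from 3136 to 2365.2 (-0.41) and JVM-13 from 3263.6 to 3192.8 (-0.03). The JVM-13 difference was 0.17 after quantile normalization and -0.70 with each array centred on its median. Z-138 (2.6 and 2.3) and Maver-1 (9.4 and 16.7, a difference of 0.66) were low on both arrays. High DMSO levels of CCL22 therefore went with a lower value under AFN700 in SP49 and GRANTA-519, while both JVM lines kept signals of at least 2365.2.

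Set against all genes of the same pair of arrays, the share of genes with a difference at least as low as that of CCL22 was 0.146% in HBL-2, 0.382% in SP49 and 0.975% in GRANTA-519. It was 8.24% in JVM-2 and 37.7% in JVM-13. In REC-1, Z-138 and Maver-1 both arrays were below the 60th percentile, so no place among the genes is given. The share of genes at least 2-fold lower was 1.02% in REC-1, 1.32% in SP49, 4.46% in HBL-2 and 6.07% in GRANTA-519. The AFN700 arrays of HBL-2 and SP49 had the higher actin ratios given above.

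CCL4 had the widest range of differences. In REC-1 it went from 317.8 to 1512.3, a log2 difference of 2.24 and the 4th highest of 12305 genes, where 2.54% were at least 2-fold higher. In Z-138 it went from 279.1 to 53.4, a difference of -2.32 and the lowest of all genes tested in that line, where 1.06% were at least 2-fold lower. CCL4 in these lines thus began at similar values and differed in opposite directions.

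The other CCL4 differences were smaller than 2-fold. SP49 went from 1656.5 to 1246.9 (-0.41), HBL-2 from 176.6 to 132.1 (-0.41) and JVM-2 from 1566 to 1040.1 (-0.59). GRANTA-519 went from 1724.2 to 2215.9 (0.36). JVM-13 went from 375.3 to 520 (0.47), which turned to -0.20 with centred arrays. Maver-1, at 13.4 and 7, was low on both arrays. No direction of CCL4 was shared by all lines with a signal.

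CCL5 was lower with AFN700 in 7 of 8 lines. Among the 3 lines with a clear signal, GRANTA-519 went from 327.2 to 121.9, a log2 difference of -1.40, and JVM-2 from 509.5 to 390.4 (-0.38). JVM-13 went from 155.2 to 204.8 (0.39), which was 0.09 after quantile normalization and -0.27 with centred arrays. In SP49 it went from 37.4 to 16.1 (-1.07), starting close to the array's 60th percentile. The remaining 4 lines had differences between -0.58 in HBL-2 and -0.03 in Maver-1, on intensities of at most 26.6.

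The 3 CCL5 probe sets did not give 1 direction in every line. In GRANTA-519 they read -1.40, -1.44 and -0.99, with 204655_at first and 1555759_a_at last. In JVM-2 they read -0.38, -0.11 and 1.08 in that order, so the last probe set was 2-fold higher where the others were lower. In JVM-13 they read 0.39, 0.24 and -0.37. In REC-1 they read -0.29, -0.08 and 0.22, in SP49 -1.07, -0.34 and -0.42, and in Maver-1 -0.03, -0.75 and -1.05. The lower CCL5 value in GRANTA-519 was thus similar in all 3 probe sets. The sign depended on the probe set in REC-1, JVM-2 and JVM-13, and the size in SP49 and Maver-1.

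CCL17 was lower with AFN700 in 5 of 8 lines. GRANTA-519 went from 35.8 to 3.4, a log2 difference of -2.54, and SP49 from 40.9 to 11 (-1.63). JVM-13 went the other way, from 48.2 to 135.6 (1.43, and 0.76 with centred arrays). These were the 3 lines with a CCL17 signal above the 60th percentile under DMSO. The AFN700 values in GRANTA-519 and SP49 were below the 60th percentiles of their arrays, 31.7 and 29.8, so the size of these differences depends on background and on the pseudocount. In JVM-13, 25.7% of all genes were at least 2-fold higher and 7.01% at least 2-fold lower, so a 2-fold higher value was common on that pair of arrays. The 5 other lines had CCL17 intensities of at most 14.3 with DMSO and at most 10.8 with AFN700, and differences between -0.91 and 0.50.

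By line, the members at least 2-fold lower numbered 3 of 4 in SP49 (CCL5, CCL17 and CCL22) and the same 3 in GRANTA-519. Of all genes tested, 1.32% and 6.07% were at least 2-fold lower in these lines. In SP49 the count includes CCL5 through 204655_at alone (-1.07), since the other probe sets read -0.34 and -0.42, and without it the count is 2. There was 1 in REC-1 and 1 in HBL-2 (CCL22 in both), and 1 in Z-138 (CCL4). Maver-1, JVM-2 and JVM-13 had 0 of 4, where 1.68%, 1.07% and 7.01% of genes were at least 2-fold lower. In SP49 and GRANTA-519, labelled sensitive and insensitive, CCL4 alone among the 4 stayed within 2-fold by the probe sets that stood for the genes. CCL5 also did so in SP49 by its other probe sets, and narrowly in GRANTA-519 by 1555759_a_at (-0.99). CCL5 and CCL22 were lower in at least 6 of the 8 lines, as were 14.1% of the genes tested.

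**Figure D3:**
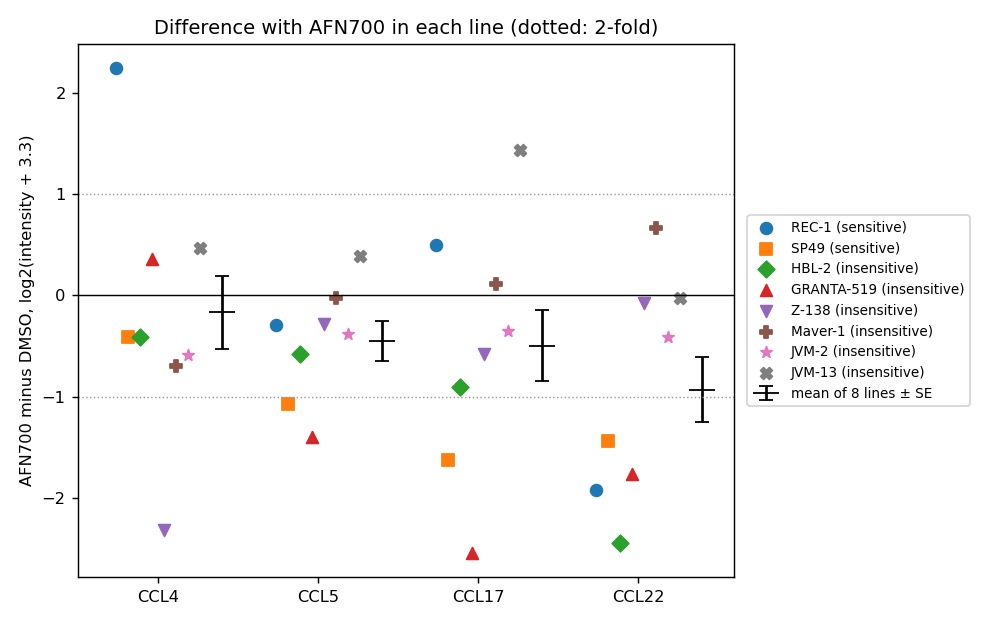
Log2 difference (AFN700 minus DMSO) of each gene in each line, with the mean of the 8 lines and its SE from limma and dotted lines at 2-fold. CCL4 spans -2.32 to 2.24, and CCL22 lies at or below -1.44 in 4 lines and between -0.41 and 0.66 in the other 4.

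Over the 8 lines, none of the members passed limma's test with the line as a block. CCL22 had a mean log2 difference of -0.93 ± 0.32 (SE, n = 8 lines, 95% interval -1.61 to -0.24, unadjusted p = 0.0117, adjusted p = 0.539). CCL5 had -0.45 ± 0.20 (-0.89 to -0.02, unadjusted p = 0.0423, adjusted p = 0.598). CCL17 had -0.50 ± 0.35 (adjusted p = 0.714) and CCL4 -0.17 ± 0.36 (adjusted p = 0.916). The CCL4 mean turned to 0.14 without Z-138 and was -0.51 without REC-1. Without GRANTA-519 the CCL17 mean was -0.20, and without JVM-13 it was -0.77.

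Limma called 0 of 12305 genes over the 8 lines (0%), with 1006 at an unadjusted p under 0.05 and a lowest adjusted p of 0.305. The median difference was -0.48 over the 4 members, which were chosen with earlier results of these data known, and 0.06 over all genes tested. Without JVM-13, 10 genes were called, and 37 without JVM-13 and HBL-2, none of them a member. With arrays weighted by their fit, limma called 150 genes, again with no member, and CCL22 then had an adjusted p of 0.118 and CCL5 of 0.105.

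The sensitivity label raised the question whether the 4 genes responded differently in the 2 groups. CCL22 was lower in both sensitive lines (-1.92 in REC-1 and -1.44 in SP49). Its mean in the insensitive lines was -0.68 ± 1.18 (SD, n = 6). The REC-1 value rests on low intensities, 25.9 and 4.4, where the filter level of the arrays was 27.9 and 30.4. Only SP49 thus had a clear CCL22 signal among the sensitive lines. In Z-138 and Maver-1, part of the insensitive mean, CCL22 was also low on both arrays. The difference of responses was -1 ± 0.71 (SE, 95% interval -2.55 to 0.55, adjusted p = 1). For CCL4 it was 1.45 ± 0.75 (-0.20 to 3.09, adjusted p = 1), and it was 0.12 without REC-1 and 2.77 without SP49. CCL5 was at -0.30 ± 0.48 and CCL17 at -0.09 ± 0.86, both with an adjusted p of 1. Limma called 0 of 12305 genes (0%) in this comparison, and 182 had an unadjusted p under 0.05. Among the insensitive lines, HBL-2 (-2.44) was below both sensitive lines. GRANTA-519 (-1.76) was below SP49, and its place against REC-1 depends on the pseudocount.

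CCL5 and CCL17 had similar profiles of response across the lines. Their differences had a Pearson r of 0.96 (Spearman 0.88, n = 8 lines), and 0.89 without GRANTA-519 and SP49. With the other CCL5 probe sets the r was 0.78 for 1405_i_at and 0.31 for 1555759_a_at, so the likeness depended on the probe set. CCL17 signals in 5 lines were low, which limits it further. CCL17 and its neighbour CCL22 had an r of 0.48 for the differences, and CCL4 and CCL22 of -0.47. REC-1 was the line in which CCL4 (2.24) and CCL22 (-1.92) went furthest apart.

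**Figure D4:**
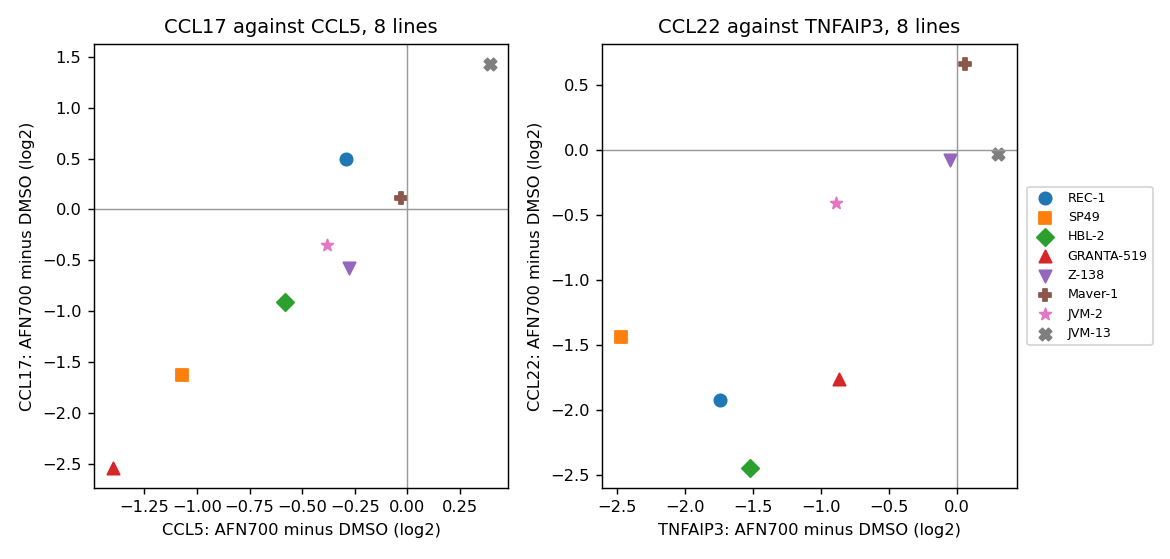
Log2 differences (AFN700 minus DMSO) in the 8 lines, CCL17 against CCL5 on the left and CCL22 against TNFAIP3 on the right, 1 point per line. GRANTA-519 and SP49 are lowest and JVM-13 highest for both CCL5 and CCL17. The 4 lines with CCL22 at or below -1.44 have TNFAIP3 at or below -0.87. JVM-2 also has TNFAIP3 below that value, at -0.89, but CCL22 at -0.41, so TNFAIP3 does not separate the lines. The CCL22 point of REC-1 rests on low intensities, 25.9 and 4.4.

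The genes most like each member by Pearson r among 12304 others were listed for the DMSO level and for the difference, 3 each, over 8 lines. For the CCL22 difference they were YLPM1 (r = 0.984), GADD45B (0.931), a stress-induced gene, and GADD45GIP1 (0.906). CCL4 differences were most like those of MARVELD1 (0.959), FBXL19 (0.923) and SELPLG (0.917), which encodes the P-selectin ligand. CCL5 differences were most like SLC27A3 (0.968), CCL17 (0.963) and FHIT (0.96), and CCL17 differences like KCNMA1 (0.969), CCL5 (0.963) and ENSA (0.961).

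For the DMSO level, CCL5 was most like SLAMF1 (0.992), a surface receptor of activated lymphocytes, ADGRA3 (0.991) and EMID1 (0.987). CCL4 was most like PRKCD (0.949), a protein kinase C gene, EGR3 (0.922), an early response gene, and LINC00537 (0.912). CCL22 was most like ZYX (0.968), UBE2C and ITPR1 (0.967 each), and CCL17 like SEC14L1 (0.981), NCKAP1 (0.967) and PEX39 (0.948). These values rest on 8 points and carry no test. Without JVM-13 every r named here was at least 0.911. The CCL5 levels fall into 3 high and 5 low lines, and the Spearman values of its most similar genes ran from 0.743 for EMID1 to 0.929 for SLAMF1 and ADGRA3. The lowest Spearman values among all genes named were those of CCL4 with EGR3 (0.69, DMSO level), MARVELD1 (0.714) and FBXL19 (0.738, both for the difference).

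Most other CC chemokine ligands that could be read had low signals in these lines. CCL3 was not among those read, so nothing is said of its level. Of 22 listed ligands, 16 could be read from their own probe set and 2 passed the filter, CCL20 and CCL28, and neither passed the test. CCL20, which attracts cells with CCR6, was at 445.9 with DMSO and 44 with AFN700 in JVM-2, and at 148.5 and 331.4 in JVM-13. In the other 6 lines it was at most 4.6. CCL28, a mucosal chemokine, was at 140.7 and 180.8 in JVM-2 and at 434.4 and 269.5 in JVM-13, and at most 18.2 in the other lines. Clear CCL20 and CCL28 signals thus appeared in the JVM lines, in opposite directions with AFN700 for both genes, which was not tested. The DMSO array of JVM-13, with its low median over the genes tested, is part of this comparison.

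**Figure D5:**
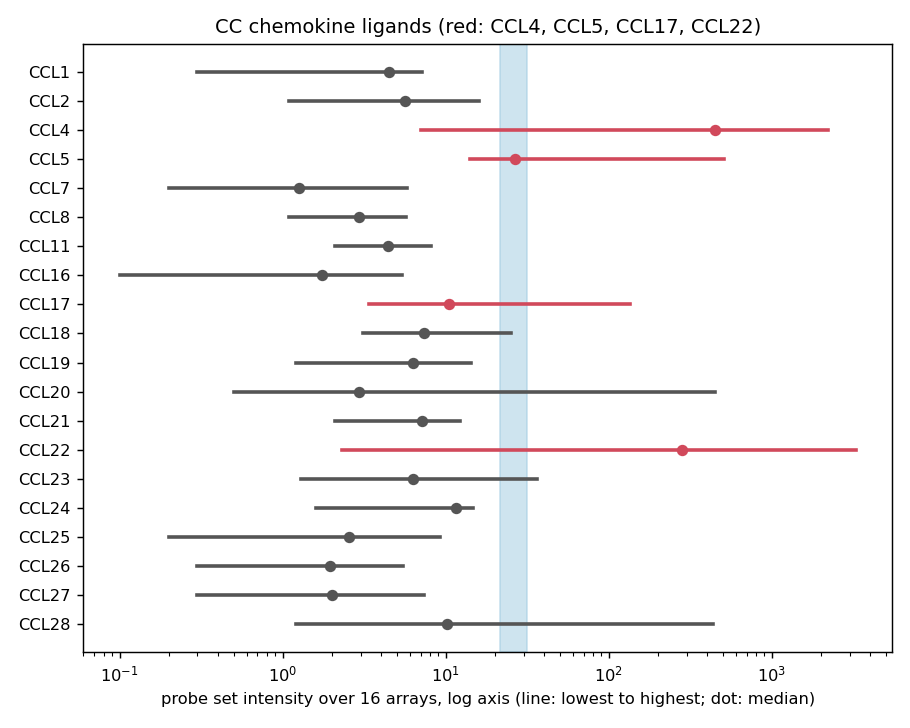
Range (line) and median (dot) of probe set intensity over the 16 arrays, on a log axis, for the 20 CC chemokine ligands with a probe set of their own, with a band for the 60th percentiles of the arrays. The 4 members, in red, reach above the band, as do CCL20, CCL28 and, on 1 array, CCL23.

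Receptors were next. Of 14 CC chemokine receptor genes, 12 could be read and 7 passed the filter, 2 of them with a lower and 5 with a higher mean, and 0 passed the test. CCR4, the receptor for CCL17 and CCL22, was at most 8 on any array, below the 60th percentile on all 16. CCR1, a receptor for CCL5, had a highest signal of 75.2, in GRANTA-519 with DMSO, and 29.6 there with AFN700. The smallest p among receptors was that of CCRL2, an atypical receptor gene, with a mean difference of 0.87 ± 0.26 (SE, adjusted p = 0.466) and a higher value in 7 of 8 lines. In Maver-1 CCRL2 went from 92.1 to 408.3. CCR2 was at 0.42 ± 0.16 and CCR6 at 0.46 ± 0.27. The median of the list was 0.22, against 0.06 over all genes.

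In the NF-kB list, 16 of 18 genes were tested, 10 had a lower and 6 a higher mean, 0 passed the test, and the median was -0.14. NFKB1, the p105/p50 subunit gene, was lower in 8 of 8 lines (-0.48 ± 0.15, adjusted p = 0.472). TNFAIP3, the feedback gene that encodes A20, was at -0.90 ± 0.28 (adjusted p = 0.484), and was called with array weights (-1.02, adjusted p = 0.0455). IKBKB, which encodes the target of AFN700, was at 0.27 ± 0.12 (adjusted p = 0.605). In REC-1, SP49, HBL-2 and GRANTA-519, the lines in which CCL22 was at least 2-fold lower, TNFAIP3 was at -1.74, -2.47, -1.52 and -0.87. In JVM-2 it was at -0.89, and in Z-138, Maver-1 and JVM-13 at -0.05, 0.06 and 0.30.

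Of 16 transcription factor genes chosen for known roles at chemokine genes, 15 were tested, 8 with a lower and 7 with a higher mean, and 0 passed the test. BATF, an AP-1 family factor of activated lymphocytes, was lower in 8 of 8 lines (-0.48 ± 0.17, adjusted p = 0.552). JUNB was at -0.46 ± 0.17 and IRF4, a B-cell activation factor, at -0.46 ± 0.19, with adjusted p-values of 0.562 and 0.595. The median of the list was -0.01.

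Other cell types that make these chemokines were checked through their markers. The T-cell list, 6 of 7 with a probe set, had a summed intensity of 10 to 417.3 with DMSO and 14.8 to 492 with AFN700, and CD2 was at most 10.9 on any array. The other T-cell markers had signals in single lines. In REC-1, CD3D was at 141.3 and 164.4 and CD3E at 89.1 and 147, DMSO first. CD8A was at 180.4 and 115.1 in SP49, and CD3G at 106.1 and 91.6 in Z-138. The NK and cytotoxic list summed to 22.9 to 594.6 with DMSO and 27.7 to 825.1 with AFN700, PRF1 reached 796.6 in SP49, and GNLY was at most 6.1. The myeloid and dendritic list, 6 of 7 with a probe set, summed to 27.3 to 625.3 and 28.6 to 569.9, and CD14 was at most 8.6 and FCER1A at most 15.5. Other genes of that list had clear signals, up to 432 for CD1C in SP49, 303.8 for LYZ in HBL-2 and 210.3 for ITGAX in JVM-2. Of these lists and the B-cell list 0 genes passed the test, their medians lay between -0.19 and 0.19, and their part in the chemokine values was not tested.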

How the data were processed

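RNA of 16 arrays was analysed. MAS5 is named in the submitters' processing notes, its version being not given in the sources used here. The deposited intensity values are linear, and every array has the same 2% trimmed mean of 150. No detection calls were used. Genes were assigned to probe sets from the platform annotation (41097 with 1 gene, or 41091 without 6 control probe sets, 1801 with several, 11777 not listed), symbols were updated through Entrez numbers with RefSeq (GRCh38.p14), and those with several genes and 62 control probe sets were left out.

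Values were taken to log2(intensity + 3.3), the 25th percentile of all values, and fitted over all 12305 genes tested with limma 3.58.1 in R 4.3.3 (lmFit, eBayes with a trend), with Benjamini-Hochberg adjustment and a threshold of 0.05. The line was a fixed block in the AFN700 comparisons, since both arrays of a line come from the same cell line. P-values measure the spread between lines. Members and lists were chosen with earlier results of these data known. Named genes were the members, 3 genes most like each, and the 3 smallest p-values of each list. KCNJ16, as the 1 gene called, and CCR1, CCR4, CCR7 and single markers were named after their values were seen. Alternatives changed pseudocount, scaling, filter, probe set rule, trend, weights, block and lines. Only the fit of AFN700 minus DMSO over all lines was tested on simulated arrays, with shifts alike in every line and larger than the members' means. Figures used matplotlib 3.10.9.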

Additional observations from a re-analysis of the deposited data

Results flagged for a closer look

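CCL17 in the AFN700 array of JVM-13 lay apart from the other treated arrays, with a log2 level of 7.12 against 3.84 in the next highest line. The gap was 0.75 of the range over the 8 AFN700 arrays, above Dixon's critical value for 8 values. It was the only 1 of 12 sets of 8 values tested this way (4 genes, each with its DMSO level, AFN700 level and difference) to pass, and chance passes about 1 in 20. CCL17 was also highest in JVM-13 with DMSO (48.2), but there SP49 (40.9) and GRANTA-519 (35.8) were close. The median log2 level of JVM-13 over the genes tested was 7.25 with DMSO and 7.91 with AFN700, and its part in the CCL17 value was not tested.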

How the results depend on the processing

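Over the 8 lines, 0 of 77 values of the 4 members under the alternatives passed the threshold, and 1 turned its sign, that of CCL4 without Z-138. Leaving out each line gave -0.51 to 0.14 for CCL4, -0.58 to -0.32 for CCL5, -0.77 to -0.20 for CCL17 and -1.15 to -0.71 for CCL22, and 0 to 10 genes called. Without the replicate block (the line), CCL22 stayed at -0.93 with an adjusted p of 1, and no call changed. Array weights gave 150 genes called over 8 lines, and leaving out JVM-13 and HBL-2 gave 37. For the DMSO comparison the count of 1 became 3 with a pseudocount of 16, 5 with no filter, 0 with a filter on at least 8 arrays, 0 with the mean of all probe sets, 8 with no trend, 3 with array weights, 0 without JVM-13 and HBL-2, and 0 to 46 without each line. CCL17 did not pass the filter on at least 8 arrays.

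The difference of responses for CCL17 (-0.09) turned to 0.04 with a pseudocount of 1, 0.03 with centred arrays and 0.28 without JVM-13 and HBL-2, and ran from -1.15 to 0.97 without each line. That of CCL5 (-0.30) turned to 0.14 with the mean of all probe sets, 0.41 with 1405_i_at and 0.30 with 1555759_a_at, and ran from -0.69 to 0.09. For the DMSO level, CCL17 (0.13) turned to -0.03 with centred arrays and ran from -0.95 to 1.20 without each line. CCL22 (-0.18) turned to 0.51 with array weights and 0.64 without JVM-13 and HBL-2, and ran from -3.02 to 2.66. Both ends of each range in these comparisons came from leaving out SP49 or REC-1, and the sensitive group then held 1 line. CCL28 was at -0.03 with centred arrays and at -0.03 with the mean of all probe sets, and ran from 0 to 0.17 without each line. CD79A was at -0.01 and 0 under the same pair of settings. The cause was not tested. Signals near the 60th percentile of an array limit CCL17, and CCL5 in 5 lines.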

Other observations

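CD1C, which encodes a lipid-presenting surface protein of dendritic cells and some B cells, had its lower values with AFN700 in the lines in which CCL22 was at least 2-fold lower. It went from 432 to 122 in SP49 (a log2 difference of -1.80), from 177.7 to 33.1 in GRANTA-519 (-2.31), from 224.6 to 89 in REC-1 (-1.30) and from 421.5 to 244 in HBL-2 (-0.78). In the other 4 lines it was at most 42.1 on any array. Over the 8 lines its mean was -0.52 ± 0.34 (SE, limma, adjusted p = 0.695). CCR7, which guides B cells and T cells to lymph nodes, had a mean difference of 0.21 ± 0.23 (SE, limma, adjusted p = 0.808). It was highest in JVM-2 with DMSO (1296.3, and 1559.6 with AFN700). It was higher with AFN700 in SP49 (0.85) and in JVM-13 (1.66, against that line's DMSO array of low median). CCR7 was lower in HBL-2 (-0.56), GRANTA-519 (-0.46) and Z-138 (-0.44).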
